A study of Gallus gallus with 18 samples.

Results

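The gene desert upstream of the chicken alpha-globin gene domain was followed through its 5C contacts in 3 cell types. It spans chromosome 14 from 10130001 to 11780000 of the galGal4 build. The contacts are those of all primer pairs with both primers inside these bounds: 61 forward by 61 reverse primers give 3721 of the 9025 pairs in each table. The distance between the primers of a pair runs from 2.59 to 1634 kb, with a median of 482 kb, and neighbouring primers lie 11.6 kb apart in the median.

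5C was done on 6 libraries, from 2 biological replicates each of HD3dif, HD3pr and DT40 cells. HD3pr are proliferating HD3 cells, chicken erythroblasts transformed by avian erythroblastosis virus (clone A6 of line LSCC), grown at 37 °C. HD3dif are the same cells induced to differentiate for 14 h at 42 °C with 20 µM iso-H-7, a protein kinase inhibitor, and 10 mM HEPES. Per the paper's methods, induction also took place in air, while growth was under added carbon dioxide. Drug, buffer, heat, atmosphere and differentiation thus cannot be told apart between HD3dif and HD3pr. The labels give 1% formaldehyde for all 6 libraries, and the paper's methods name another concentration. DT40 is a chicken B-lymphoid line that came from a bursal lymphoma induced by avian leukosis virus and was grown at 37 °C. Each cell type is 1 transformed line. The erythroid lines differ from DT40 in lineage, transforming virus and clone, and these cannot be told apart either. Read totals were 5369181 and 6740556 in HD3dif, 5441780 and 5971923 in HD3pr, and 5325397 and 5106079 in DT40. Identifiers in the gene count tables were not paired with names here, so markers of the cell types were not checked by gene name.

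5C counts ligation products between restriction fragments picked out by primers, here fragments cut by HindIII, so a read count follows how often 2 fragments were crosslinked near each other. Contact falls with distance along the chromosome. It is higher inside topologically associating domains (TADs), stretches that contact themselves more than their surroundings, and lower across the boundaries between them. Gene deserts are long stretches with few genes. They are often inactive and tend to contact other inactive chromatin, while the alpha-globin genes lie in a gene-rich neighbourhood and code for a subunit of haemoglobin.

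The desert took a larger share of all 5C reads in HD3dif than in HD3pr, and a larger share in HD3pr than in DT40. The share was 68.4 and 68.8% in HD3dif, 63.7 and 62.8% in HD3pr, and 59.96 and 60.3% in DT40. No library of one cell type reached the range of another. Mean shares were 68.6 ± 0.325% in HD3dif, 63.2 ± 0.672% in HD3pr and 60.2 ± 0.268% in DT40 (SD, n = 2 each). The mean in HD3dif was 5.36 percentage points above that in HD3pr and 8.46 points above that in DT40, and the mean in HD3pr was 3.09 points above that in DT40. Each difference exceeded the spread between replicates, with an exact permutation p of 0.333 (two-sided), the smallest that 2 libraries against 2 allow, so no comparison of single values between cell types could reach 0.05.

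Most of these reads came from the longer, left part of the desert. A position inside the desert, bin 52 of the 30-kb bins counted from 9800001 (11330001 to 11360000), divides it into bins 12 to 51 and bins 53 to 66. Pairs with both primers before bin 52 took 45.2 and 45.3% of all reads in HD3dif, 41.3 and 40.7% in HD3pr, and 37.1 and 37.2% in DT40. Pairs with both primers after bin 52 followed another order, with 9.77 and 9.91% in HD3dif, 9.14 and 8.82% in HD3pr, and 10.7 and 10.9% in DT40. DT40 was thus lowest before bin 52 and highest after it. Pairs across bin 52 took 10.3 and 10.7% in HD3dif, 10.4 and 10.8% in HD3pr, and 9.34 and 9.70% in DT40, where HD3dif and HD3pr overlapped.

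Single pairs were noisy. In each library 14.2 to 18.6% of desert pairs had fewer than 5 reads, 1.10 to 2.02% had 5 to 49, and 79.5 to 84.1% had 50 or more. Pairs thus tended to be present with many reads or nearly absent. The pairs with at least 5 reads in only 1 of the 2 replicates made up 20.9% in HD3dif, 19.0% in HD3pr and 18.9% in DT40. Between replicates the correlation of log2 reads across desert pairs was 0.551 in HD3dif, 0.575 in HD3pr and 0.578 in DT40. These are correlations across pairs that share primers, so the pairs are not independent.

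Contact fell steeply with distance in every library. HD3dif and HD3pr differed most at the 2 ends of the distance range, and both lay above DT40 at 480 to 960 kb. For pairs under 15 kb apart (86 pairs), mean contact per pair was 1470 and 1356 RPM (reads per 1000000 reads of the library) in HD3dif, 1104 and 1024 in HD3pr, and 1144 and 1141 in DT40. Both HD3dif libraries were above all others. HD3dif was 1.33 times HD3pr (range over library pairs 1.23 to 1.44) and 1.24 times DT40. At 15 to 30 kb (59 pairs) the values were 730 and 667 in HD3dif, 587 and 536 in HD3pr, and 580 and 569 in DT40, a fold of 1.24 for HD3dif over HD3pr and 1.22 for HD3dif over DT40. HD3pr and DT40 overlapped in this class.

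At middle distances HD3dif and HD3pr lay closer together. At 120 to 240 kb (492 pairs) contact was 214 and 222 RPM in HD3dif, 211 and 206 in HD3pr, and 204 and 197 in DT40. At 240 to 480 kb (820 pairs) the values were 136 and 145 in HD3dif, 137 and 134 in HD3pr, and 125 and 129 in DT40, and HD3dif and HD3pr overlapped. At 480 to 960 kb (1183 pairs) both erythroid states were above DT40, with 92.4 and 95.1 in HD3dif, 90.1 and 90.8 in HD3pr, and 79.1 and 80.5 in DT40. HD3dif was 1.18 times and HD3pr 1.13 times DT40 there, the largest fold of HD3pr over DT40 among the 8 distance classes.

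Beyond 960 kb (679 pairs) HD3pr was the highest. Contact was 59.9 and 63.3 RPM in HD3dif, 67.2 and 69.5 in HD3pr, and 60.8 and 63.6 in DT40. HD3dif was 0.901 times HD3pr and overlapped DT40. Both ends kept their direction when contact was scaled to desert reads in place of all reads. On that scale HD3dif was 1.22 times HD3pr and 1.08 times DT40 under 15 kb, and 0.831 times HD3pr and 0.868 times DT40 beyond 960 kb. Between 30 and 960 kb the direction depended on the scale: HD3dif was 1.04 to 1.05 times HD3pr per library read in the classes of that range, and 0.955 to 0.972 times HD3pr per desert read.

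**Figure D1:**
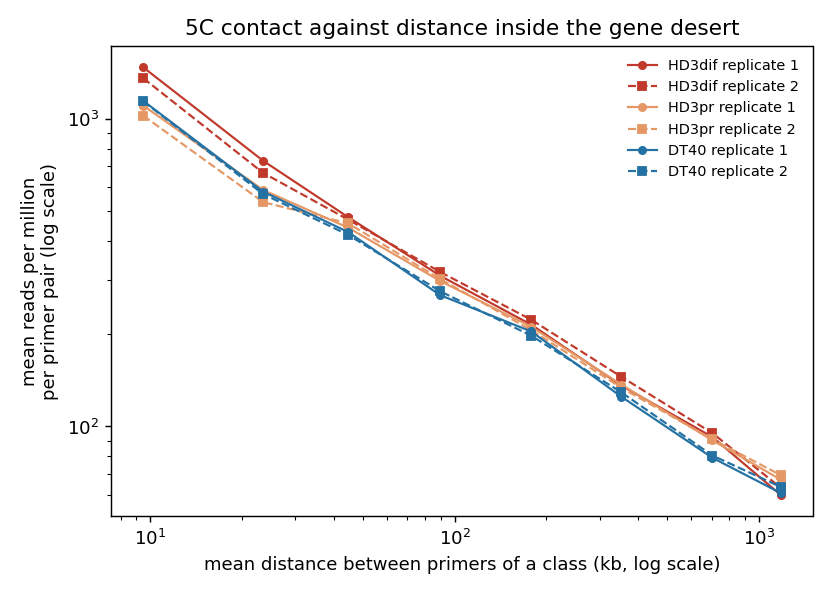
Contact against distance inside the gene desert, in mean RPM per primer pair (log axis) against distance in kb (log axis), with 1 line per library in HD3dif, HD3pr and DT40. The HD3dif libraries are the upper ones under 30 kb (1470 and 1356 in the closest class), and the HD3pr libraries are the upper ones beyond 960 kb (67.2 and 69.5).

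The slope of log2 contact on log2 distance between 30 kb and 1.5 Mb was −0.611 and −0.592 in HD3dif, −0.579 and −0.580 in HD3pr, and −0.597 and −0.587 in DT40. Both HD3dif libraries and both DT40 libraries were steeper than both HD3pr libraries (exact permutation p = 0.333 each), while HD3dif and DT40 overlapped.

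Taken singly, no desert primer pair passed the main test. Of 3691 desert pairs with a mean of at least 10 reads, edgeR's quasi-likelihood test called none in any contrast at an adjusted p below 0.05. Over all 8748 pairs tested in the whole region, 0% were called in HD3dif against HD3pr, 0.0343% in HD3pr against DT40 and 0.0343% in HD3dif against DT40. At an unadjusted p below 0.05 there were 140 desert pairs in HD3dif against HD3pr (81 higher, 59 lower). HD3pr against DT40 had 152 (96 higher, 56 lower) and HD3dif against DT40 had 184 (122 higher, 62 lower). These were 3.79%, 4.12% and 4.99% of desert pairs, beside 4.01%, 4.15% and 5.1% of all pairs, so the desert's share was near the background.

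DESeq2 called 167 desert pairs in HD3dif against HD3pr (102 higher, 65 lower), 184 in HD3pr against DT40 (109 higher, 75 lower) and 244 in HD3dif against DT40 (165 higher, 79 lower). Its shares over all pairs were 5.78%, 6.36% and 7.29% in the same contrasts, each above the desert's own share of its 3691 tested pairs. Of the desert pairs called, 116, 145 and 154 in the same order had a library with fewer than 5 reads. Of all desert pairs tested, 37.0%, 36.1% and 37.6% had such a library. The median standard error of a log2 fold change in HD3dif against HD3pr was 1.46 over desert pairs by edgeR, which sets how small a change could be seen. It was 0.278 under 15 kb and 2.50 beyond 960 kb.

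Among the 86 pairs under 15 kb, the median log2 fold change of HD3dif against HD3pr was 0.41, and 87.2% of them were above 0. These are the same pairs and libraries whose mean is given above, and the pairs share primers, so the counts are no separate support. At an unadjusted p below 0.05, 15 were higher and none was lower. Among all 123 pairs of the region under 15 kb, 16 were higher and 4 lower, and the 37 of these outside the desert had a median of −0.033, with 48.6% above 0. In the gene-rich zone I, defined below, mean contact of the 13 pairs under 15 kb was 1.15 times HD3pr in HD3dif, without overlap between libraries. In zone III (15 pairs) it was 0.827 times, with overlap. These values are per library read and carry the desert's larger share in HD3dif, which leaves a smaller share for pairs outside. The difference between pairs inside and outside the desert was not tested. The median log2 fold change of HD3dif against HD3pr was 0.08 over all desert pairs and −0.04 over all pairs of the region. A scale of desert reads in place of all reads lowers each log2 value of this contrast by 0.12, those of HD3pr against DT40 by 0.072 and those of HD3dif against DT40 by 0.19. In HD3pr against DT40 the median of the short pairs was −0.096, with 39.5% above 0. In HD3dif against DT40 their median was 0.26, with 74.4% above 0.

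More desert pairs were higher than lower without overlap between libraries in each contrast per library read. In HD3dif against HD3pr, 745 desert pairs (20.2%) were higher and 537 (14.5%) lower, beside 17.1% and 17% of all pairs. In HD3pr against DT40, 758 (20.5%) were higher and 525 (14.2%) lower, beside 17.5% and 16.6%. In HD3dif against DT40, 880 (23.8%) were higher and 524 (14.2%) lower, beside 17.7% and 18.8%. Per desert read, 16.2% were higher and 17.7% lower in HD3dif against HD3pr, 18.4% and 16.2% in HD3pr against DT40, and 19.3% and 18.6% in HD3dif against DT40. The median log2 fold change over desert pairs was then −0.036, 0.056 and 0.016 in these contrasts, so the excess of higher pairs was smaller on that scale, and reversed in HD3dif against HD3pr. With TMM factors, another scaling of the libraries, the medians were 0.22, 0.11 and 0.32, beside 0.079, 0.13 and 0.21 with library totals. The size of the shift thus depended on the scale, and its direction too in HD3dif against HD3pr.

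Reads summed over pairs of 30-kb bins gave no desert call by edgeR either. None of 1350 desert bin pairs was called in any contrast, beside 0%, 0.0556% and 0.0556% of 3594 bin pairs in HD3dif against HD3pr, HD3pr against DT40 and HD3dif against DT40. In the same order, 78, 89 and 130 desert bin pairs (5.78%, 6.59% and 9.63%) had an unadjusted p below 0.05, beside 6.29%, 5.9% and 8.96% of all bin pairs. DESeq2 called 69, 61 and 127, beside 5.95%, 5.2% and 8.76% of all bin pairs. Without overlap between libraries, 291 desert bin pairs (21.6%) were higher and 208 (15.4%) lower in HD3dif against HD3pr, beside 16.1% and 20.2% of all bin pairs. In HD3pr against DT40, 320 (23.7%) were higher and 201 (14.9%) lower, beside 18.8% and 18.7%. In HD3dif against DT40, 29.0% were higher and 13.3% lower, beside 18.5% and 22.5%. The 89 bin pairs after bin 52 had a median log2 fold change of −0.23 in HD3pr against DT40, beside 0.15 over all desert bin pairs.

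The pairs with the lowest p-values inside the desert are given as examples chosen after their values were seen. FOR_738 and REV_733, 13.8 kb apart in bin 55, had 2316 and 2226 RPM in HD3dif, 1217 and 1093 in HD3pr, and 1842 and 1872 in DT40. HD3pr was the low one here. Its log2 fold change in HD3dif against HD3pr was 0.98 (SE 0.19, edgeR adjusted p = 0.918).

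FOR_395 and REV_400, 4.83 kb apart in bin 30, had 1374 and 1188 RPM in HD3dif, 1244 and 944 in HD3pr, and 324 and 455 in DT40. DT40 lay well under both erythroid states. The log2 fold change of HD3dif against DT40 was 1.72 (SE 0.29, edgeR adjusted p = 0.337). FOR_471 and REV_486, 39.6 kb apart in bins 35 and 36, had 282 and 211 RPM in HD3dif, 151 and 252 in HD3pr, and 0.563 and 0.588 in DT40, where each library held 3 reads. The edgeR adjusted p of this pair was 0.0510 in HD3dif against DT40 and 0.0602 in HD3pr against DT40.

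FOR_867 and REV_687 (380 kb apart, bins 65 and 53) had 109 and 104 RPM in HD3dif, 0.368 and 0.167 in HD3pr, and 175 and 161 in DT40. The low values in HD3pr were 2 reads and 1 read. FOR_210 and REV_358 (267 kb apart) had 258 and 349 in HD3dif, 1.10 and 0.837 in HD3pr, and 88.3 and 32.1 in DT40. FOR_291 and REV_596 (675 kb apart) had 144 and 98.7 in HD3dif, 269 and 171 in HD3pr, and 0.376 and 0.196 in DT40. In each of these 3 pairs 1 cell type was nearly empty in both libraries, and none passed the adjusted threshold.

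Single restriction fragments also differed in the sum of all their contacts with primers of the other kind inside the desert. REV_400, whose primer lies at 10679803 to 10679832 in bin 30, summed to 5812 and 6595 RPM in HD3dif, 4899 and 4339 in HD3pr, and 1830 and 1933 in DT40. This is a fold of 3.30 for HD3dif over DT40 and of 2.45 for HD3pr over DT40. FOR_867 in bin 65 (11720001 to 11750000) went the other way, with 2515 and 1949 in HD3dif, 2421 and 2665 in HD3pr, and 5157 and 5545 in DT40. REV_400 and FOR_867 had the highest and the lowest fold of HD3dif over DT40 among the 122 desert primers (3.30 and 0.417). The pair FOR_395 and REV_400 above shares the primer REV_400, so it is not a separate observation. Of the 122 desert primers, 72 were higher and 5 lower without overlap in HD3dif against HD3pr, 61 higher and 17 lower in HD3pr against DT40, and 87 higher and 10 lower in HD3dif against DT40. These sums are per library read and so carry the desert's larger share. Per desert read the counts were 26 higher and 22 lower, 44 and 24, and 38 and 26 in the same contrasts. Of all 190 primers, summed over the whole region per library read, they were 53 and 55, 68 and 66, and 84 and 76. A difference in how well 1 primer worked in a library cannot be told apart from a difference in contact of its fragment. Iterative correction, used for the maps below, evens out the totals of 30-kb bins and not those of single primers.

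Contacts far above those of other pairs at their distance were few. Of 2838 desert pairs at least 200 kb apart, the highest over the 6 libraries was FOR_220 in bin 19 (10340001 to 10370000) with REV_497 (10897186 to 10897215, bin 37), 553 kb apart. It had 1200 and 1074 RPM in HD3dif, 757 and 910 in HD3pr, and 767 and 860 in DT40. That was 12.3 to 22.2 times the level expected for its distance and its primers in each of the 6 libraries, so it was present in all 3 cell types.

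FOR_781 in bin 58 (11510001 to 11540000) and REV_162 (10229687 to 10229716, bin 15), 1306 kb apart, were also present throughout. They had 242 and 246 RPM in HD3dif, 333 and 217 in HD3pr, and 241 and 355 in DT40, at 4.16 to 7.11 times the expected level, and the cell types overlapped. Whether the reads of this pair come from contact was not tested either. FOR_621 with REV_205 (890 kb) had 39.5 and 31.9 in HD3dif, 0.368 and 0 in HD3pr, and 61.8 and 32.5 in DT40. The other 2 of the 5 highest pairs, FOR_867 and FOR_878 with REV_337, had no read in at least 2 libraries each.

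**Figure D2:**
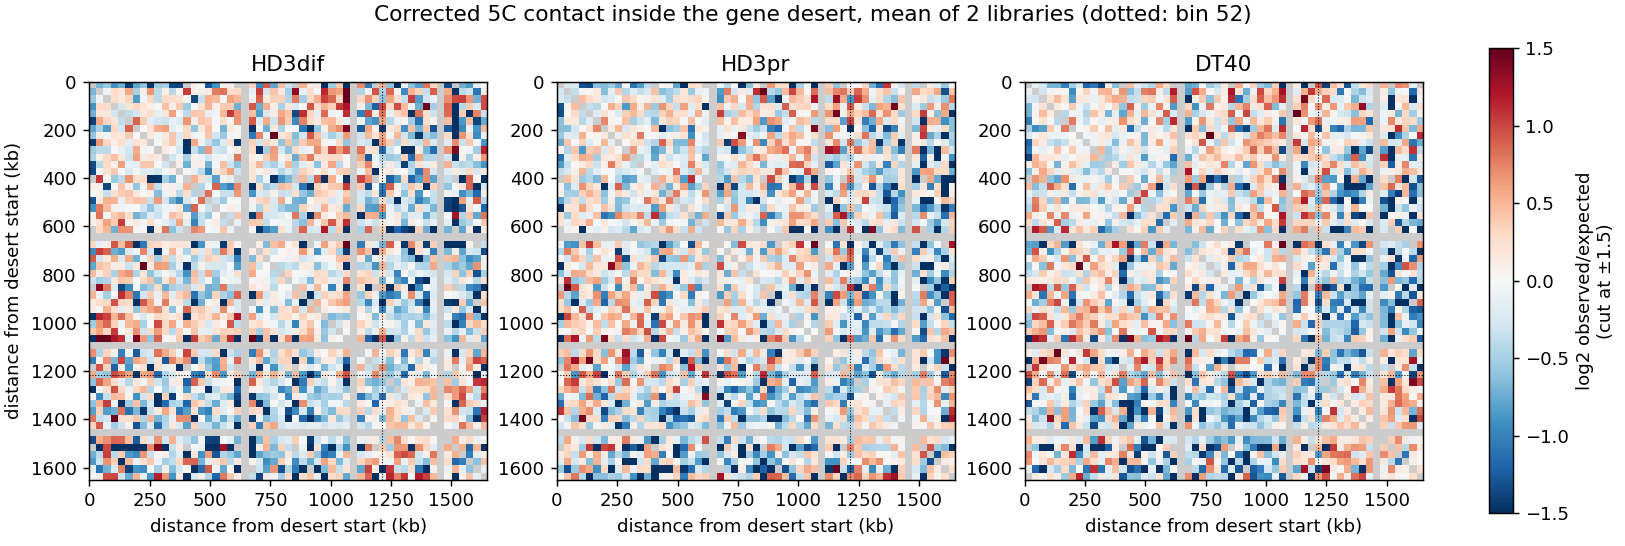
Corrected contact maps of the gene desert by cell type (HD3dif, HD3pr, DT40; mean of 2 libraries), with distance from the desert start in kb on both axes, colour giving log2 observed over expected contact at the same distance, grey bins without a value and dotted lines at bin 52. The block of bins 53 to 66 stands above expectation in each map (means of 1.18 in HD3dif, 1.12 in HD3pr and 1.24 in DT40), and contacts between it and the earlier bins stand under it.

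The short right-hand block contacted itself more than the long left-hand block at matched distance in all 6 libraries. After iterative correction, which gives every bin the same total, mean contact inside bins 53 to 66 over the desert's own mean at the same distance (1 to 13 bins) was 1.19 and 1.17 in HD3dif, 1.12 and 1.12 in HD3pr, and 1.26 and 1.23 in DT40. Inside bins 12 to 51 it was 0.995 and 0.992 in HD3dif, 1.01 and 1.00 in HD3pr, and 0.984 and 0.999 in DT40. Between the 2 blocks it was 0.840 and 0.852 in HD3dif, 0.834 and 0.884 in HD3pr, and 0.796 and 0.773 in DT40. DT40 was the lowest between the blocks and the highest inside the right-hand one, while HD3dif and HD3pr overlapped between the blocks.

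The log2 ratio of contact after bin 52 over contact before it was 0.26 and 0.24 in HD3dif, 0.15 and 0.16 in HD3pr, and 0.36 and 0.30 in DT40. The 3 cell types did not overlap (exact permutation p = 0.333 for each contrast, the smallest possible). Without iterative correction the ratio was 0.082 and 0.14 in HD3dif, 0.22 and 0.20 in HD3pr, and 0.64 and 0.61 in DT40. HD3dif then lay under HD3pr, so the order of the erythroid states turned with the correction, and DT40 was highest under both.

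Contact directly across bin 52 was lower in DT40 than in the erythroid states. Between bins 47 to 51 and bins 53 to 57, log2 observed over expected contact was −0.27 and −0.20 in HD3dif, −0.19 and −0.23 in HD3pr, and −0.41 and −0.42 in DT40. All 6 values were under 0, which the choice of this position from the same libraries favours. Means were −0.24 ± 0.045 in HD3dif, −0.21 ± 0.031 in HD3pr and −0.42 ± 0.0082 in DT40 (SD, n = 2 each). HD3dif exceeded DT40 by 0.18 and HD3pr exceeded DT40 by 0.21 (exact permutation p = 0.333 each), and HD3dif and HD3pr overlapped. Without iterative correction the values were −0.11 and 0.074 in HD3dif, 0.065 and −0.0043 in HD3pr, and −0.087 and 0.0092 in DT40. They lay on both sides of 0 in each cell type, and every cell type overlapped every other.

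The insulation score is a related quantity, taken bin by bin and without matching for distance. It is log2 of the mean corrected contact between the 5 bins before and the 5 bins after a bin, relative to the mean of the desert. At bin 52 it was −0.22 and −0.17 in HD3dif, −0.14 and −0.25 in HD3pr, and −0.36 and −0.38 in DT40. Both DT40 libraries were below the other 4. Limma put the difference of HD3dif against HD3pr at −0.0013 (SE 0.072, adjusted p = 0.986), that of HD3pr against DT40 at 0.18 (SE 0.072, adjusted p = 0.196) and that of HD3dif against DT40 at 0.17 (SE 0.072, adjusted p = 0.247), so none was called. With a window of 3 bins HD3pr against DT40 turned to −0.0082.

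The lowest score near this position moved between libraries. Among bins 49 to 53 it was at bins 52 and 49 in the HD3dif libraries, at bin 49 in both HD3pr libraries, and at bins 53 and 50 in the DT40 libraries. At bin 50 the scores were −0.0031 and −0.078 in HD3dif, −0.29 and −0.21 in HD3pr, and −0.16 and −0.44 in DT40. At bin 51 they were −0.020 and −0.071 in HD3dif, −0.070 and −0.25 in HD3pr, and −0.11 and −0.33 in DT40. At bin 53 they were −0.10 and −0.20 in HD3dif, −0.15 and −0.22 in HD3pr, and −0.39 and −0.42 in DT40, a difference of 0.25 for HD3dif against DT40 (SE 0.072, limma adjusted p = 0.177). All 6 libraries thus had scores under the desert's mean from bin 49 to bin 53. The replicates placed the deepest point up to 3 bins apart. Bin 49 lies beside bin 48, which holds no primer, so the score of bin 49 lacks some of the closest contacts.

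Over the 55 desert bins limma called none in any contrast, beside 0%, 2.47% and 0% of 81 bins of the region in HD3dif against HD3pr, HD3pr against DT40 and HD3dif against DT40. At an unadjusted p below 0.05 there were 6, 10 and 7 desert bins in the same order, beside 18.5%, 23.5% and 17.3% of the 81 bins. The lowest p in HD3pr against DT40 was at bin 59 in the right-hand block, where the score was 0.12 and −0.034 in HD3pr, against 0.38 and 0.40 in DT40, a difference of −0.34 (SE 0.076, limma adjusted p = 0.0540). Bin 58 had the lowest p in HD3dif against HD3pr, with 0.39 and 0.40 in HD3dif, against 0.17 and 0.080 in HD3pr (difference 0.27, SE 0.069, limma adjusted p = 0.221). On uncorrected maps limma called 5, 14 and 19 of the 55 desert bins in HD3dif against HD3pr, HD3pr against DT40 and HD3dif against DT40, beside 34.6%, 34.6% and 54.3% of the 81 bins.

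**Figure D3:**
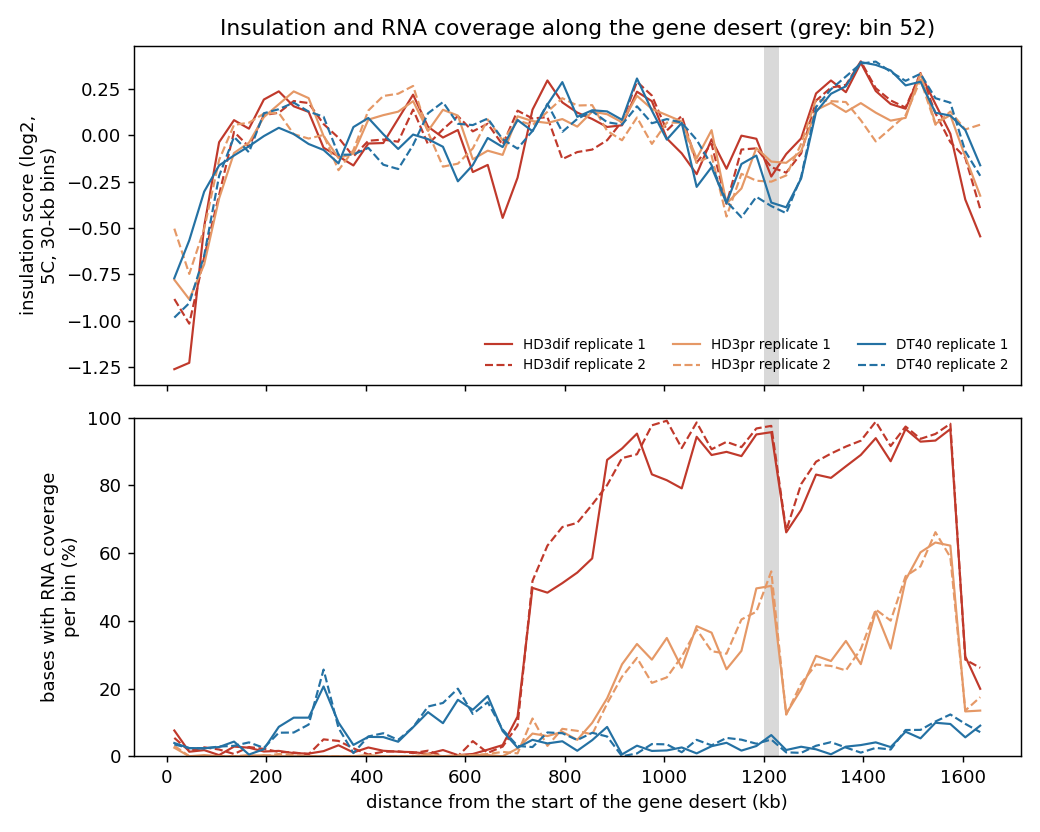
Insulation score (log2) of each 30-kb desert bin in the HD3dif, HD3pr and DT40 libraries, above the percent of bases covered by RNA-seq in the same bins, against distance from the desert start in kb, with bin 52 in grey. Scores of all 6 libraries are under 0 from bin 49 to bin 53 and at the left edge, and RNA coverage over bins 36 to 64 is broad in HD3dif (81.8 and 86.9% of bases) and narrow in DT40 (3.74 and 4.34%).

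Minima of the score can mark the edges of sub-domains. They were taken where the mean of both libraries dipped at least 0.2 below its surroundings on both sides. HD3dif had 4, at bins 13, 24, 34 and 49. HD3pr had 3, at bins 13, 23 and 49, and DT40 had 3, at bins 12, 53 and 66. These lists do not set the cell types apart. At bin 49 DT40 scored −0.37 and −0.36. HD3pr differed from DT40 by −0.027 at bin 23 and −0.041 at bin 49 (SE 0.073 and 0.083, limma adjusted p = 0.862 each). DT40 had a minimum at bin 23 at a depth of 0.1 and without iterative correction, and at bin 49 with a window of 3 bins. The deepest in every cell type was at the left edge of the desert, where the score of bins 12 to 14 reached −1.26 and −1.02 in HD3dif, −0.88 and −0.75 in HD3pr, and −0.77 and −0.98 in DT40.

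Only some minima were found in both replicates within 1 bin. Bin 24 in HD3dif (10490001 to 10520000, scores −0.16 and −0.11) and bin 23 in HD3pr (10460001 to 10490000, −0.12 and −0.19) were found in both libraries of their cell type, as was bin 49 in HD3pr (11240001 to 11270000, −0.37 and −0.44). Bin 34 in HD3dif (10790001 to 10820000, −0.45 and −0.052), bin 49 in HD3dif (−0.18 and −0.37), bin 53 in DT40 and bin 66 in DT40 (11750001 to 11780000, −0.16 and −0.22) were found in 1 library each. Bins 34 and 49 lie beside bins 33 and 48, which hold no primer. The score averages only contacts that exist, so next to such a bin it lacks some of the closest, highest ones. How far this made these minima was not tested. Armatus segmentation of the summed maps cut the desert once inside each cell type: HD3dif had segments of bins 13 to 47 and 49 to 66, HD3pr of bins 13 to 51 and 52 to 72, and DT40 of bins 12 to 52 and 53 to 66. The right-hand segment of HD3pr ran past the end of the desert, to 11960000. The paper's own segmentation with the Armatus score places further boundaries inside the desert in HD3dif and HD3pr.

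The direction of the difference in contact between the desert and the gene-rich ends of the region depended on the correction. Zone I is bins 1 to 11 (132 pairs) and zone III bins 74 to 91 (224 pairs). Mean corrected log2 contact at 30 to 240 kb was lower in the desert than in zone I by −0.58 and than in zone III by −0.37, and lower in 6 of 6 libraries in both. The exact sign-flip permutation p was 0.03125 each, the smallest that 6 libraries allow, and 0.0625 after adjustment over the 6 tests of this kind. All libraries used the same primers, so these p-values show only that a direction repeated between libraries. The correction gives every bin the same total, and both zones lie at the ends of the map, where bins have fewer near neighbours. How far this changes corrected near contact there was not tested, so the corrected comparison cannot separate a property of the desert from its position in the map. Without the correction the differences were 0.14 (higher in 4 of 6 libraries, exact permutation p = 0.406, adjusted 0.406) and 0.88 (higher in 6 of 6, exact permutation p = 0.03125, adjusted 0.0625). The slope with distance over 30 to 240 kb was −0.53 in the desert, against −0.62 in zone I and −0.65 in zone III (exact permutation p = 0.125 and 0.0625, adjusted 0.15 and 0.0938).

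RNA-seq of the same cell types, 2 rRNA-depleted total RNA libraries each, covered the desert very unequally. Per the paper, the desert holds a predicted counterpart of human RBFOX1. The paper also reports a rise of intergenic transcription across the whole genome in differentiated HD3 cells. Whether the desert's coverage comes from that gene, or exceeds that rise, was not tested. Per 1000000 bases of coverage in a library, 174 and 191 fell in the desert in HD3dif, 25.0 and 26.0 in HD3pr, and 5.17 and 5.30 in DT40. The fold was 7.17 for HD3dif over HD3pr and 4.87 for HD3pr over DT40. In bulk RNA, more RNA per cell and more cells that make it cannot be told apart, and strands were not separated. For scale, the 90 kb of bins 76 to 78 with the alpha-globin genes had 950 and 895 in HD3dif, 141 and 136 in HD3pr, and 102 and 123 in DT40.

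A stretch of bins 36 to 64, chosen after the coverage was seen, held 94.1 and 95.3% of the desert's coverage in HD3dif and 65.99 and 62.8% in HD3pr, against 33.9 and 36.8% in DT40, where bins 12 to 35 held more (61.9 and 59.0%). The stretch had 164 and 182 per 1000000 bases of coverage in HD3dif, 16.5 and 16.4 in HD3pr, and 1.75 and 1.95 in DT40, a fold of 8.87 for HD3pr over DT40. These values leave out runs of constant coverage over 200 bases. With such runs kept, the stretch had 165 and 185 in HD3dif, 16.6 and 18.3 in HD3pr, and 3.27 and 5.40 in DT40, and the fold of HD3pr over DT40 was 4.03. Covered bases there were 81.8 and 86.9% in HD3dif, 30.9 and 30.2% in HD3pr, and 3.74 and 4.34% in DT40. Bins 12 to 35 had 9.07 and 7.76 per 1000000 bases of coverage in HD3dif, 8.13 and 9.23 in HD3pr, and 3.20 and 3.12 in DT40, with 2.26 and 2.30% of bases covered in HD3dif, 0.283 and 0.356% in HD3pr, and 7.87 and 8.11% in DT40. The covered stretch begins before bin 52 and runs across it, so its left edge is not at bin 52. Within it, covered bases fell from bin 52 to bin 53, from 95.68 and 97.55% to 66.11 and 66.65% in HD3dif. In HD3pr they fell from 50.3 and 54.58% to 12.55 and 12.28%, and in DT40 from 6.25 and 4.93% to 1.84 and 1.15%. At bin 64 they were 96.6 and 98.18% in HD3dif and 62.19 and 58.76% in HD3pr. Whether the drop goes with the low contact across bin 52 was not tested.

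Corrected contact averaged over this stretch overlapped between the cell types. Contact over expected inside bins 36 to 64 (1 to 13 bins apart) was 0.980 and 0.989 in HD3dif, 0.992 and 0.984 in HD3pr, and 0.992 and 0.982 in DT40, so the cell types overlapped. The expected level comes from the same desert maps, which holds such averages near 1, so they could hardly show a difference. Pairs under 30 kb were higher in HD3dif than in HD3pr in both stretches: 1.36 times in bins 36 to 64 and 1.26 times in bins 12 to 35. Uncorrected contact at 30 to 120 kb in HD3dif was 1.10 times HD3pr in bins 36 to 64, without overlap between libraries. In bins 12 to 35 it was 1.02 times, with overlap. At 120 to 720 kb it was 1.05 times in bins 36 to 64, without overlap, and 1.06 times in bins 12 to 35, with overlap. These folds are per library read and so carry the desert's larger share in HD3dif. Whether the folds of the 2 stretches differ was not tested.

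**Figure D4:**
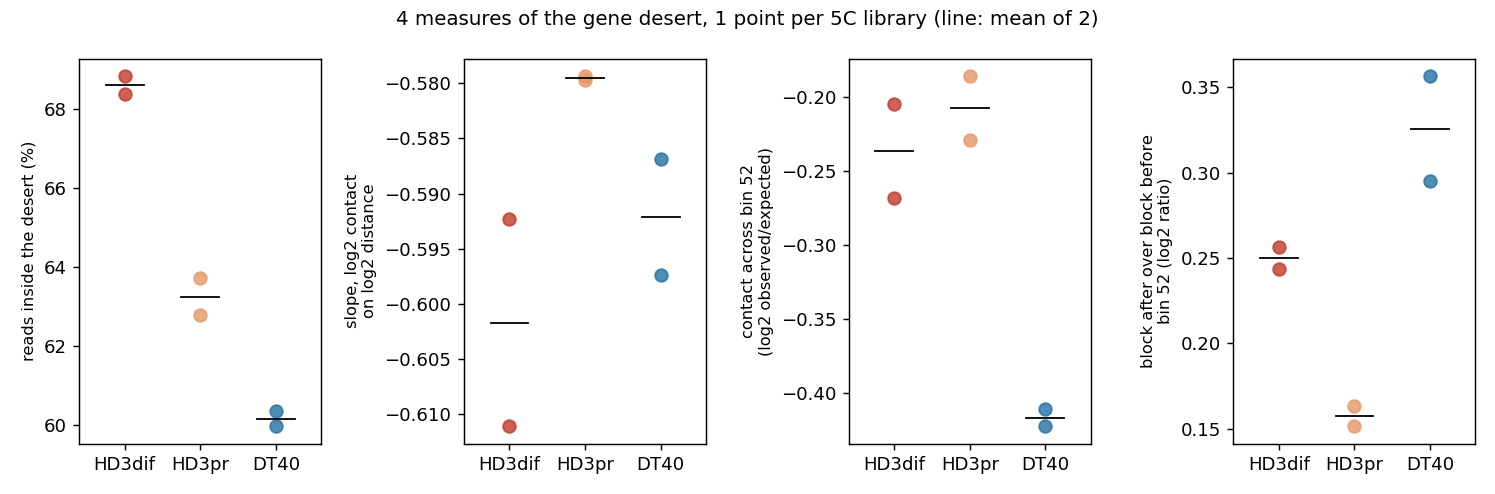
Values per library in HD3dif, HD3pr and DT40 (2 points each): share of reads inside the desert, slope with distance, contact across bin 52, and contact after over before bin 52, with a line at each mean. The points of the share and of the after over before ratio do not overlap between cell types, and the 2 DT40 points of contact across bin 52 (−0.41 and −0.42) are the lowest.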

How the data were processed

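The 5C tables hold raw read counts per primer pair, deposited by the authors without normalization: per the study's methods, reads were checked for the HindIII site and mapped with Bowtie2 (2.2.1 in the submitters' processing notes) to galGal4. The RNA-seq coverage files hold unscaled coverage per base, deposited by the authors after TopHat2 2.0.12 and bedtools 2.16.2, named in the submitters' processing notes. Forward and reverse primer names are exchanged in the tables: with names exchanged back, a primer's strongest partner lay 10.9 to 12.0 kb away in the median, against 66.8 to 75.5 kb as labelled. The 1 column without a name was left out.

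Counts were scaled to library totals (5106079 to 6740556 reads). Intervals from counts would cover counting error only. Maps were means over primer pairs in 30-kb bins, with 200 rounds of iterative correction. Bins 33, 48 and 60 hold no primer. Tests were edgeR 4.0.16 (quasi-likelihood, all 6 libraries, mean of at least 10 reads, Benjamini-Hochberg over all pairs), limma 3.58.1 on insulation scores and exact permutation tests over libraries, in R 4.3.3 and Python 3.11.15. DESeq2 1.42.0 was an alternative, as were other scalings, filters, windows, bounds and left-out libraries. Scripts were tested on simulated data. Runs of constant RNA coverage over 200 bases were removed, since runs of up to 12538 bases occur in the desert. Their origin was not tested.

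Named regions were to be the 5 largest rises and 5 largest falls among called primer pairs with a mean of at least 50 reads (3 and 3 for bin pairs), the 5 highest pairs at least 200 kb apart, the boundary bins and every insulation minimum. Nothing was called, so the pairs of lowest p are named as examples. Members, lists and tests were chosen with earlier results of these data known. C-TALE data and gene counts were not used here.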

Additional observations from a re-analysis of the deposited data

Results flagged for a closer look

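Each 5C table has a column with no primer name, which took no part in the comparisons. Its reads numbered 28470 and 42819 in HD3dif, 31833 and 34805 in HD3pr, and 41716 and 34822 in DT40, or 0.527 to 0.777% of all reads of a library. They were set apart because they lie outside the named primers and are far above the 3 reads that a count of 0 allows.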

How the results depend on the processing

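The limits are the noise of single pairs, 2 libraries a cell type and the iterative correction. edgeR called no desert pair or bin pair under its alternatives, except 1 primer pair in HD3dif against DT40 with TMM factors and 1 without the filter, whereas DESeq2 called 167, 184 and 244 primer pairs and 69, 61 and 127 bin pairs in HD3dif against HD3pr, HD3pr against DT40 and HD3dif against DT40. The cause of that gap was not tested. With desert reads as the scale, chosen after the data were seen, edgeR also called none. On that scale folds by distance class turned under 1 in HD3dif against HD3pr (0.972, 0.965, 0.966, 0.957 and 0.955 from 30 to 960 kb), in HD3pr against DT40 at 120 to 240 kb (0.988) and in HD3dif against DT40 at 30 to 60 kb (0.981), 120 to 240 kb (0.954) and 240 to 480 kb (0.969).

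Small differences changed sign. At bin 52 the insulation difference of HD3dif against HD3pr was 0.122 with a window of 3 bins, 0.0101 with 8 bins and 0.0487 with primer names as labelled, and that of HD3pr against DT40 was −0.00817 with 3 bins. Contact across bin 52 in HD3dif against HD3pr was 0.124 within 3 bins and 0.172 with a boundary of bins 50 to 52, and in HD3pr against DT40 it was −0.0280 within 3 bins. The slope of HD3dif against DT40 was 0.00577 for bins 12 to 72 and 0.000427 after correction. The log2 ratio after over before bin 52 in HD3dif against HD3pr was −0.0303 for bins 12 to 72 and −0.0965 without correction. Desert minus zone I was 0.14 and desert minus zone III 0.876 without correction, an alternative chosen after the data were seen.

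The number of minima depended on the rule. HD3dif had 6 with a window of 3 bins, 2 with 8 bins, 5 at a depth of 0.1, 1 at 0.4 and 2 by Armatus. HD3pr had 7 with a window of 3 bins, 2 with 8 bins, 6 at a depth of 0.1, 1 at 0.4 and 2 by Armatus. DT40 had 6 with a window of 3 bins, 2 with 8 bins, 6 at a depth of 0.1, 2 at 0.4 and 1 by Armatus. Without iterative correction each cell type had 4, including 1 at bin 51. Single libraries gave 4 to 5 minima in each cell type.

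Leaving out 1 library at a time, with the lone library assumed to vary like the others, gave no edgeR call (0 to 0). The insulation difference at bin 52 ran from −0.0553 to 0.0527 in HD3dif against HD3pr, turning positive without HD3dif replicate 1 (0.0240) or HD3pr replicate 1 (0.0527), from 0.122 to 0.230 in HD3pr against DT40 and from 0.149 to 0.20 in HD3dif against DT40. Contact across bin 52 ran from −0.0606 to 0.00289 in HD3dif against HD3pr, the upper value being without HD3dif replicate 1. Shares, slopes and block ratios kept their signs.

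Whether replicate numbers mark shared cultures or batches is not stated. Deviations of same-numbered libraries correlated at −0.0027, 0.013 and −0.013. Single pairs were noisy, so these values cannot show that no batch was shared. With the replicate block, edgeR called 0 desert pairs and 0 bin pairs, and insulation at bin 52 kept its differences, with limma adjusted p of 0.985, 0.217 and 0.252.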
